A study of Mus musculus with 15 samples.

Results

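The nuclear genes of the mitochondrial respiratory chain were examined in whole blood of mice whose mothers had taken tributyltin (TBT), an organotin that activates the nuclear receptors RXR and PPAR gamma. The genes were chosen by symbol among the protein-coding rows of the count table: those beginning with Nduf, Uqcr, Cox4, Cox5, Cox6, Cox7, Cox8 or Atp5, and Sdha, Sdhb, Sdhc and Sdhd. This gave 94 of 55536 rows, of which 22028 were protein coding. They comprised 36 subunits and 8 assembly factors of complex I, 4 subunits of complex II, 8 of complex III, 20 genes of complex IV and 18 of complex V. Ndufa4 and its paralogue Ndufa4l2, once assigned to complex I by name, were counted with complex IV, where the Ndufa4 protein is now placed. All animals were male C57Bl/6 mice aged 10 months with no labelled genetic change. The TBT group held 8 animals exposed through their mothers' drinking water (3.07 µM TBT, 0.5 mg for each kg of body weight daily) until weaning, and the vehicle group held 7. A liver tumor is labelled in vehicle 3 alone. Blood RNA was sequenced as total RNA, with 1 library for each animal, so the p-values measure the spread between these animals. The exposure was given to the mothers, and the labels used here name no mother or litter. Animals of the same litter could thus not be accounted for, and the p-values treat every animal as independent.

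Complexes I and II pass electrons from NADH and succinate to ubiquinone, complex III passes them on to cytochrome c, and complex IV hands them to oxygen. The proton gradient built on the way drives complex V, the ATP synthase. Mature mouse red cells have no mitochondria, so these transcripts in blood are carried by white cells, platelets and the young red cells that have not yet lost their organelles, while haemoglobin transcripts come from the red lineage.

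Many of these genes share promoter elements bound by NRF1, by ETS factors of the GABP type and by YY1. The letters of these motifs were looked up on both strands in RefSeq promoter windows (GRCm38.p6), from 250 bases before to 50 bases after the start site, which were held for 74 of the 93 symbols. The letters GCGCATGCG, part of the palindrome read by NRF1, stood in 10 of the 74 windows (13.5%), against 1.95% of all 27025 genes with a window and 2.61% of protein-coding genes. The ETS letters CCGGAAG stood in 18 (24.3%, against 9.93% and 12.9%), and the YY1 letters AAGATGGCG in 8 (10.8%, against 1.64% and 2.14%). The YY1 letters were found in 5 of 32 complex I windows and in 0 of 14 complex IV windows. A match of letters is a description and was not tested for binding. Stretches of 30 bases before the start site are shown for 5 genes with the NRF1 letters there and for a pair of genes with ETS letters whose values are followed below, 5′ to 3′ on the gene's strand with the motif in capitals. The NRF1 stretches lie at chr15:102671070-102671099 (minus strand) for Atp5g2, chr5:108434430-108434459 (minus) for Atp5k, chr5:115349101-115349130 (minus) for Cox6a1, chr17:56717692-56717721 (plus) for Ndufa11 and chr4:24897960-24897989 (plus) for Ndufaf4. The ETS letters, read on the opposite strand, lie at chr2:174464185-174464214 (minus) for Atp5e and chr7:30626124-30626153 (minus) for Cox6b1. In GENCODE M21 the stretches of Atp5g2, Atp5k and Cox6b1 overlap an exon of a longer transcript of the same gene, that of Cox6a1 touches an exon of Gm42903 on the other strand, that of Ndufa11 lies in an intron of Vmac on the other strand, and those of Atp5e and Ndufaf4 lie outside annotated genes.
Atp5g2: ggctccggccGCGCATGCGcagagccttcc
Atp5k: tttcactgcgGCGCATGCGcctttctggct
Cox6a1: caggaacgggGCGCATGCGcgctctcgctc
Ndufa11: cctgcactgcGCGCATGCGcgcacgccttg
Ndufaf4: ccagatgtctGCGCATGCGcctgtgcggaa
Atp5e: tacggccacagCTTCCGGtagccgctcggc
Cox6b1: tcctctcgcagCTTCCGGccagtcggaatt

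The libraries held between 6031530 and 11985305 gene counts, and haemoglobin genes took 28.7% to 50.8% of them. The respiratory chain genes together took 922 to 1598 of every 1000000 counts in TBT and 1071 to 1846 in vehicle. TBT 2 and TBT 8 stood apart with the smallest TMM scaling factors (0.404 and 0.528, against 0.736 to 1.58 elsewhere). They also had the largest haemoglobin shares (50.8% and 44.5%, against 28.7% to 44.1% elsewhere), TBT 8 by a small margin over vehicle 4. TMM is a scaling of library sizes that holds the bulk of genes level between libraries. The direction in which their chain genes stood apart depended on the scale, and results that rest on them are given with and without them.

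Levels below are counts per 1000000 (CPM) on TMM-scaled library sizes. Between genes they are compared only per kilobase of annotated exons. In vehicle blood the median gene stood at 8.27 CPM per kilobase in complex IV, 6.21 in complex V, 6.06 in complex III, 4.83 in complex II and 4.00 in complex I, and at 1.54 among the complex I assembly factors. The leading subunits were Atp5b, the catalytic beta subunit of the synthase (50.4 ± 6.82 CPM per kilobase, SD, n = 7), Ndufa1, a small membrane subunit of complex I (49.3 ± 6.95), Cox6a1 (48.7 ± 9.39) and Cox8a (48.5 ± 4.58), small subunits of complex IV, and Atp5e, the epsilon subunit of the synthase (43.5 ± 10.2). These leading values lay within each other's spread. Uqcrh, the hinge protein of complex III, led its complex at 30.8 ± 4.83, and Sdha, the flavoprotein of complex II, led the other three succinate dehydrogenase genes at 10.6 ± 0.916. Taking the length of the principal transcript instead of all exons raised the medians to 19.96 in complex IV, 14.3 in complex V, 9.70 in complex III, 6.98 in complex II and 6.99 in complex I.

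**Figure D1:**
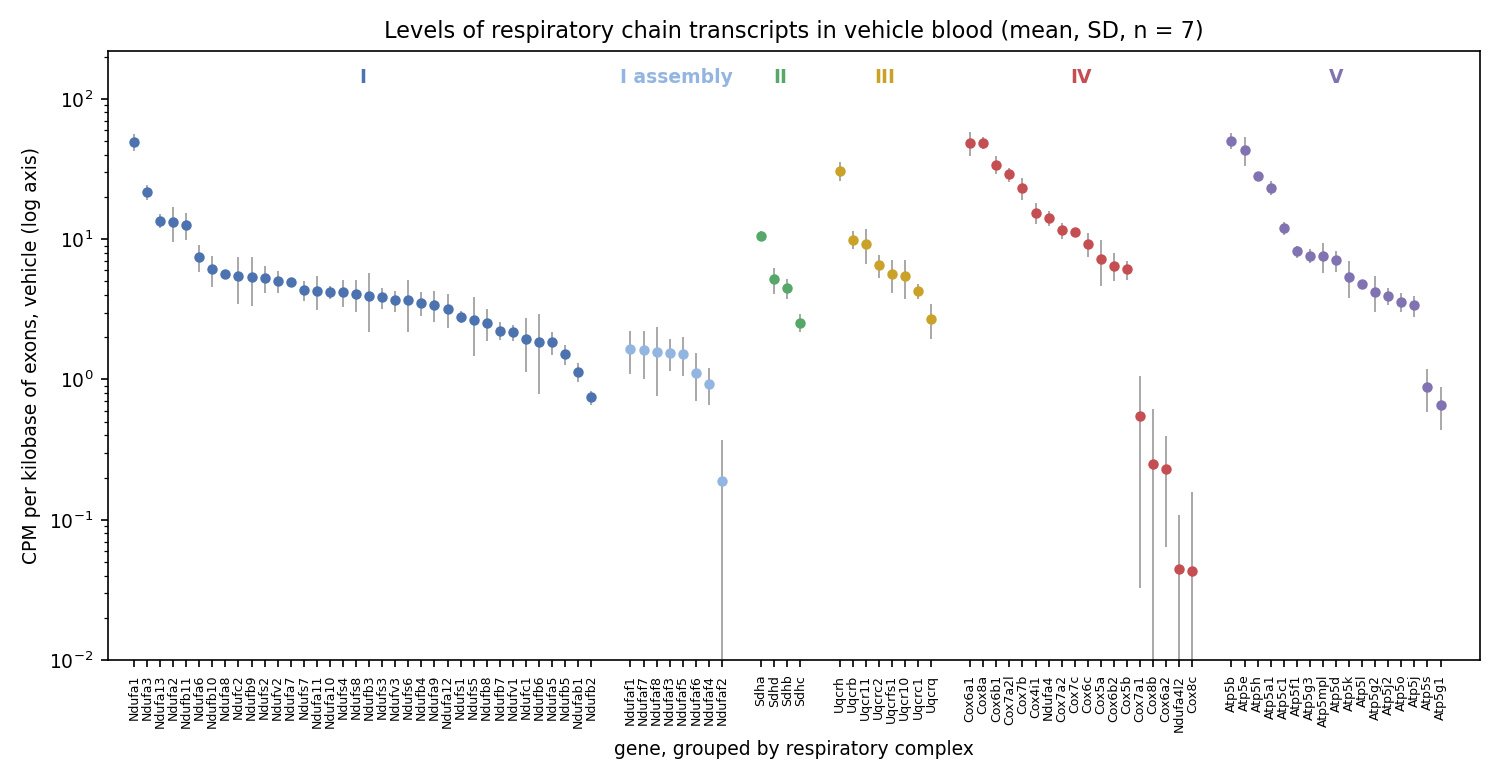
Level of each respiratory chain gene in vehicle blood, in CPM per kilobase of exons on a log axis, as points (mean) with bars (SD, n = 7), grouped by complex; bars that would reach 0 are cut at the axis, and Cox4i2, Cox7b2 and the second Atp5o row, at 0, are not drawn. Small subunits such as Ndufa1 (49.3), Cox6a1 (48.7) and Atp5e (43.5) stand beside Atp5b (50.4) at the top, and the tissue-restricted genes of complex IV other than Cox6b2 (6.48) lie among the lowest.

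Blood used mainly the widely expressed isoforms of complex IV, with Cox6b2 as an exception. The 11 widely expressed subunits had a median of 14.1 CPM per kilobase in vehicle (lowest 6.08), and each was tested. Of the 8 tissue-restricted genes only Cox6b2, a testis-type isoform at 6.48 CPM per kilobase in vehicle, passed the filter on low counts. It stood at 1.96 to 22.2 CPM in TBT (median 5.59) and at 4.09 to 9.23 CPM in vehicle (median 7.01). Its counts made up 10.3% to 37.8% of the Cox6b1 and Cox6b2 counts in TBT, with the extremes in TBT 7 and TBT 2, and 17.1% to 24.8% in vehicle. The others were read at or near 0. Over all libraries of a group, the muscle and heart isoform Cox7a1 had 48 counts in TBT and 22 in vehicle, Cox6a2 had 28 and 11, and Cox8b had 8 and 6. Cox4i2, the lung isoform, had 2 and 0, Cox7b2 had 1 and 0, Cox8c had 0 and 1, and Ndufa4l2 had 2 and 4. A total of 0 allows up to 3 counts, which is 0.0375 CPM over the TBT group and 0.0457 CPM over the vehicle group (counting error only). The 7 muscle markers Ckm, Acta1, Tnnt3, Myh4, Mb, Tnni2 and Actn3 summed to 0.711 to 4.49 CPM of all counts in TBT and 2.13 to 4.05 in vehicle, and whether muscle RNA contributed to the Cox7a1 and Cox6a2 counts was not tested. Among the 3 genes for the identical mature c subunit of the synthase ring, Atp5g3 gave the largest part of the summed level per kilobase in every library (51.0% to 71.8%), then Atp5g2, then Atp5g1. Other rows not tested were the assembly factor Ndufaf2, with 33 counts in each group, and a second Atp5o row, which overlaps the main one and Donson and had no count.

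Between TBT and vehicle, no respiratory chain gene passed the test. In edgeR's quasi-likelihood test over 13364 genes, 0 of the 85 tested members were called at a Benjamini-Hochberg adjusted p of 0.05, and neither was any other gene (0% called). The members' adjusted p ran from 0.731 to 0.9987, and no gene of the table went below 0.207. Of the members 39 were higher and 46 lower in TBT (45.9% higher), while among tested genes as a whole 59.4% were higher and 40.6% lower. Their median log2 fold change was -0.04, against 0.05 over all tested genes and 0.03 over tested protein-coding genes. At an unadjusted p under 0.05 there were 0 higher members (4.57% of all genes) and 2 lower ones, Ndufa11 and Atp5d (1.76% of all genes). DESeq2 called 19 of the 13364 genes (0.142%) and 0 members. The 95% interval of a member, not adjusted for the number of genes, reached a median of 0.363 log2 units to either side.

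**Figure D2:**
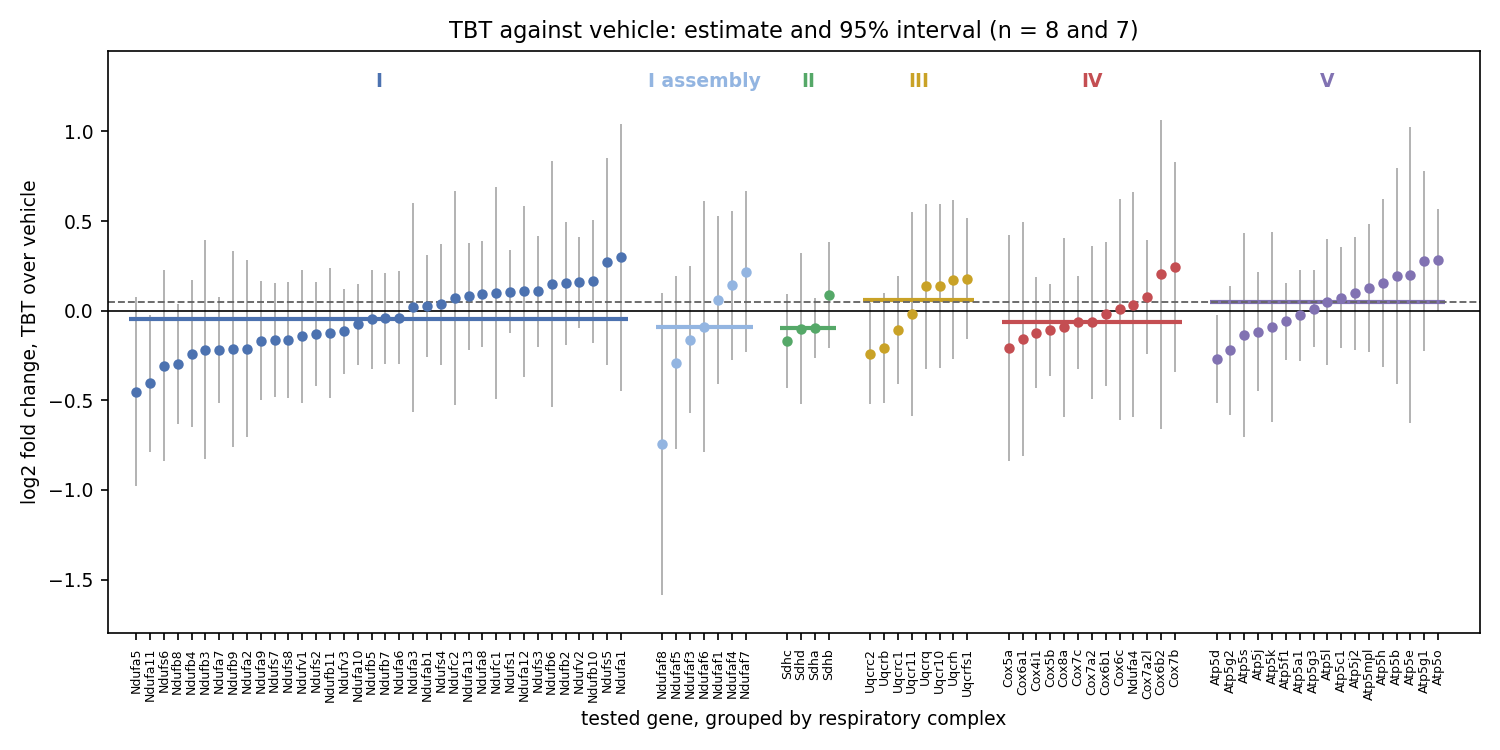
Log2 fold change of each tested gene, TBT (n = 8) over vehicle (n = 7), with its 95% interval, grouped by complex; coloured lines mark the complex medians and the dashed line the median of all tested genes (0.05). The complex medians lie between -0.10 (complex II) and 0.06 (complex III), and the intervals of all but Ndufa11 and Atp5d include 0.

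Complex I, which takes electrons from NADH, had 16 of 36 subunits higher and 20 lower (median -0.04). The 7 core subunits that carry the flavin and the iron-sulfur clusters split 3 to 4, with a median of -0.13. Ndufa11 (ENSMUSG00000002379, GRCm38 chromosome 17, 56717767 to 56722141), a subunit of the membrane arm, ran from 2.92 to 4.82 CPM in TBT (median 3.32) and from 3.29 to 6.48 in vehicle (median 5.26). All 8 TBT animals lay below the vehicle median and the groups overlapped. Its log2 fold change was -0.41 (SE 0.182, edgeR adjusted p = 0.745). Vmac overlaps it on the other strand, and reads of the genes cannot be told apart if the counting ignored strand. Ndufb8, a membrane subunit often used as a marker of complex I assembly, ran from 4.67 to 8.00 CPM in TBT (median 6.66) and from 6.03 to 11.04 in vehicle (median 7.15), a log2 fold change of -0.30 (edgeR adjusted p = 0.830). Gm20538 overlaps Ndufb8 on the same strand, and how reads in the overlap were counted is not given. Ndufa1 ran from 10.0 to 58.7 CPM in TBT and from 16.6 to 23.8 in vehicle. TBT 2 (58.7) and TBT 8 (55.9) lay above every vehicle animal, and 3 of the other 6 TBT animals lay below every vehicle animal. The log2 fold change of 0.30 (edgeR adjusted p = 0.964) turned to -0.40 without TBT 2 and TBT 8.

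The complex I assembly factors, which build the enzyme and are not part of it, had 3 of 7 tested genes higher (median -0.09). Ndufaf8 ran from 0 to 1.21 CPM in TBT (median 0.799) and from 0.350 to 2.08 in vehicle (median 1.51). All 8 TBT animals lay below the vehicle median, at a level of few counts, and the groups overlapped. Its log2 fold change was -0.74 (SE 0.401, edgeR adjusted p = 0.830). Ndufaf5, a modifier of the core subunit Ndufs7, averaged 2.20 ± 0.665 CPM with TBT (SD, n = 8) and 2.73 ± 0.851 CPM with vehicle (SD, n = 7), and its log2 fold change was -0.29. Ndufaf1, which acts in the assembly of the membrane arm, stood at 2.58 ± 0.597 and 2.49 ± 0.839 CPM.

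Complex II, the succinate dehydrogenase, had 1 of 4 subunits higher (median -0.10). Sdha ran from 37.2 to 47.0 CPM in TBT (median 40.0) and from 38.0 to 50.6 in vehicle (median 43.3), with a log2 fold change of -0.10 (SE 0.0797, edgeR adjusted p = 0.921). The iron-sulfur subunit Sdhb ran from 7.30 to 12.8 CPM in TBT (median 11.3) and from 7.36 to 12.1 in vehicle (median 9.85), with its 2 lowest TBT values in TBT 2 and TBT 8 (0.09). The membrane anchors Sdhc and Sdhd differed by -0.17 and -0.10 (edgeR adjusted p = 0.899 and 0.979). The ranges of the groups overlapped for all 4 genes.

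Complex III had 4 of 8 subunits higher (median 0.06). Uqcrc2, a core protein, ran from 10.0 to 16.3 CPM in TBT (median 14.6) and from 11.7 to 21.2 in vehicle (median 16.5). All 8 TBT animals lay below the vehicle median, with a log2 fold change of -0.24 (SE 0.134, edgeR adjusted p = 0.839). Uqcrb, which binds ubiquinone, ran from 4.38 to 9.78 CPM in TBT and from 7.43 to 10.7 in vehicle (-0.21). Uqcrh ran from 26.6 to 73.9 CPM in TBT and from 31.9 to 47.7 in vehicle, with TBT 2 (70.4) and TBT 8 (73.9) above all other animals. Its log2 fold change of 0.17 was -0.18 without them.

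Complex IV, cytochrome c oxidase, spread widely between the TBT animals. Of 13 tested genes 5 were higher and 8 lower (median -0.07). Cox4i1, a regulatory subunit, ran from 16.1 to 32.7 CPM in TBT (median 20.7) and from 17.1 to 29.9 in vehicle (median 25.0). Cox8a ran from 14.9 to 52.9 CPM in TBT (median 21.8) and from 25.5 to 33.7 in vehicle (median 29.7). TBT 2 (52.9) and TBT 8 (48.0) were the highest animals, and 5 of the other 6 TBT animals lay below every vehicle animal. Ndufa4 ran from 9.12 to 43.2 CPM in TBT (median 15.1) and from 15.8 to 21.8 in vehicle (median 20.8), again with TBT 2 (43.2) and TBT 8 (39.3) on top and 5 of the other 6 below every vehicle animal. The group means of Ndufa4 were close, and it stood at 20.6 ± 13.02 CPM with TBT (SD, n = 8) and 19.5 ± 2.30 CPM with vehicle (SD, n = 7), giving a log2 fold change of 0.03 (edgeR adjusted p = 0.997). Cox6a1, Cox6b1, Cox7a2 and Cox7b had TBT 2 and TBT 8 above the other 13 libraries too, while Cox5b, which binds zinc, did not, at 6.37 to 10.1 CPM in TBT and 8.17 to 12.5 in vehicle (-0.11). Cox7a2l, a factor of supercomplex assembly, ran from 32.6 to 70.1 CPM in TBT and from 36.9 to 49.1 in vehicle (0.08).

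Complex V, the ATP synthase, had 10 of 17 tested genes higher (median 0.05). In the F1 head, Atp5d, the delta subunit of the central stalk (ENSMUSG00000003072, chromosome 10, 80138632 to 80145818), ran from 9.56 to 13.1 CPM in TBT (median 11.3) and from 9.70 to 16.5 in vehicle (median 14.8). All 8 TBT animals lay below the vehicle median and the groups overlapped. Its log2 fold change of -0.27 (SE 0.117) had the smallest p of all members (edgeR adjusted p = 0.731). Cbarp overlaps it on the other strand. Atp5e, singled out after its values were seen, ran from 36.7 to 205 CPM in TBT (median 52.3) and from 44.3 to 93.1 in vehicle (median 85.6). TBT 2 (204) and TBT 8 (205) were far above the rest, and its fold change went from 0.20 to -0.63 without them. Atp5b ran from 107 to 556 CPM in TBT (median 183) and from 162 to 249 in vehicle (median 215), and its fold change went from 0.19 to -0.31. In the stator, Atp5o, which joins the head to the membrane part, ran from 6.31 to 11.2 CPM in TBT (median 8.91) and from 4.73 to 7.98 in vehicle (median 7.20). Of 8 TBT animals 7 lay above the vehicle median, with a log2 fold change of 0.28 (SE 0.135, edgeR adjusted p = 0.784). The c subunit genes Atp5g1, Atp5g2 and Atp5g3 differed by 0.28, -0.22 and 0.01, none past the test, and the sign of Atp5g3 turned with DESeq2 (-0.01) and upper-quartile scaling (-0.02).

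The 2 libraries that stood apart did so by complex. On TMM-scaled sizes, TBT 2 and TBT 8 were both above the other 13 libraries in 24 of the 85 tested members, against 17.4% of all tested genes. These were 10 of 13 genes of complex IV, 6 of 17 of complex V, 6 of 36 of complex I, 2 of 8 of complex III and none of complex II or the assembly factors. The part of complex I was near the share of all genes. They were both below the other 13 in 1 member, Ndufaf8 (12.1% of all genes). On CPM of all counts the direction turned: they were both above in 0 members (0.868% of all genes) and both below in 46 of 85, near the share of all genes (55.8%). That second count took in 23 of 36 subunits of complex I, all 4 of complex II and 3 of 13 genes of complex IV.

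Shares of the chain's own counts do not depend on the scale. Complex V took 50.4% of these counts in TBT 2 and 47.5% in TBT 8, while the remaining 13 libraries ranged from 38.8% to 44.0%, and complex IV took 23.9% and 22.7%, against 17.6% to 22.3%. Complex I took 16.3% and 18.6%, against 21.1% to 26.5%, and complex II 3.05% and 2.86%, against 4.43% to 6.56%. Counts of complex IV were 1.47 and 1.22 times those of complex I in TBT 2 and TBT 8 and 0.666 to 1.04 times elsewhere. TBT 7 lay at the other end, with the smallest shares of complexes IV (17.6%) and V (38.8%) and the largest of complex I (26.5%). In the other 6 TBT animals complex IV took 17.6% to 20.4%, in vehicle 19.7% to 22.3%, ranges that overlap. Over all animals the shares of complex IV averaged 20.2% ± 2.07 with TBT (SD, n = 8) and 21.3% ± 0.884 with vehicle (SD, n = 7).

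**Figure D3:**
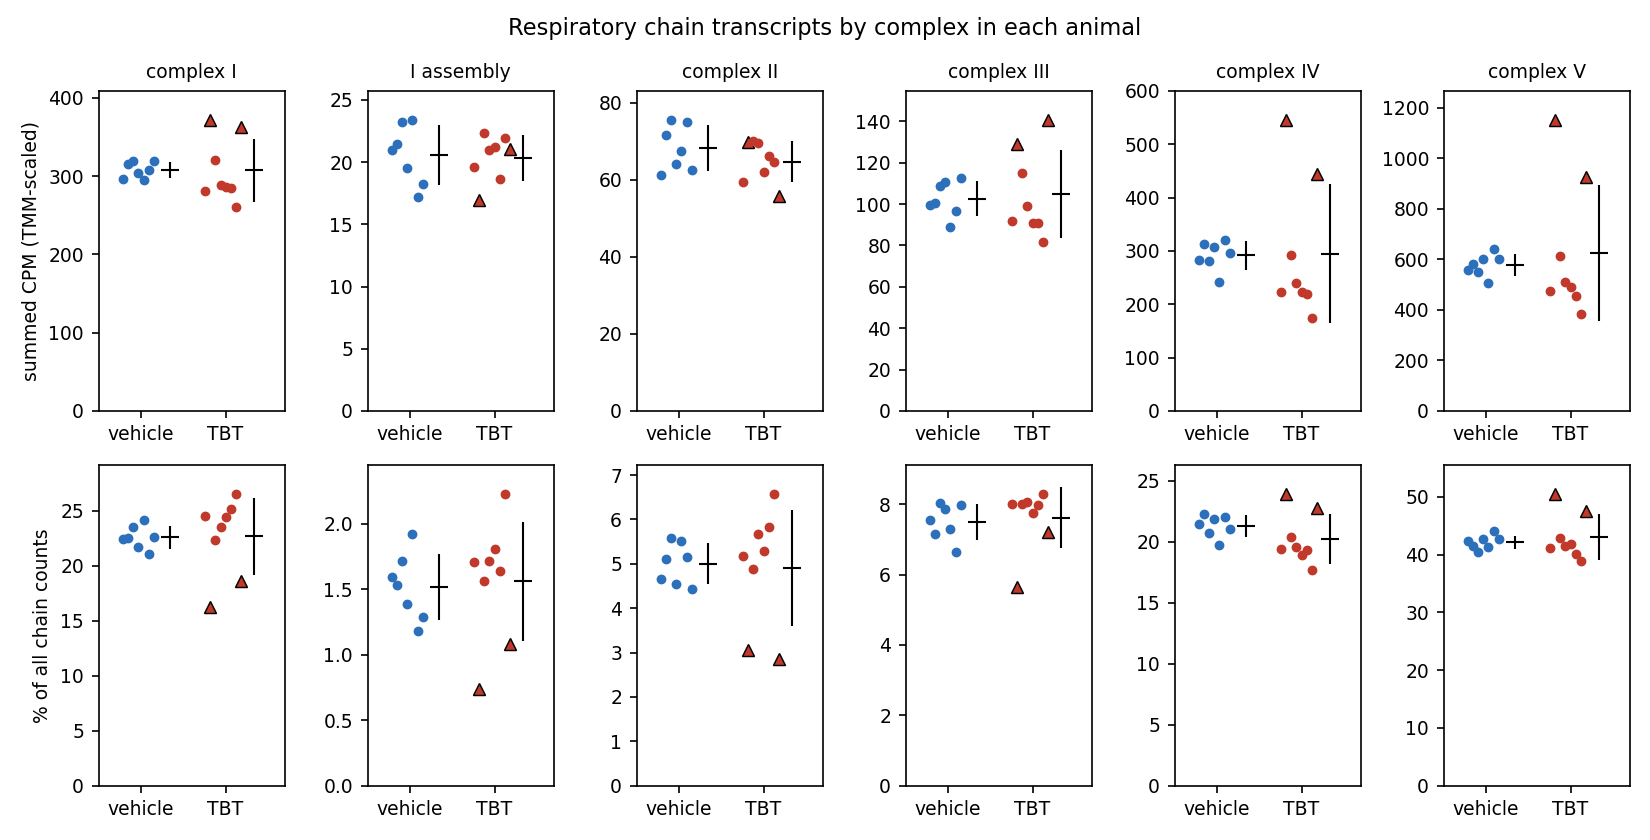
Respiratory chain transcripts by complex in each animal, as summed CPM on TMM-scaled sizes (upper row) and as the percentage of all chain counts in the library (lower row); points are animals, triangles are TBT 2 and TBT 8, and bars show the mean and SD of each group (n = 7 vehicle, n = 8 TBT). The triangles lie highest in complexes IV and V in both rows, and in complexes I and III in the upper row. In the lower row they lie lowest in complexes I and II and in the complex I assembly factors.

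The same libraries differed in blood cell markers. The 12 erythroid markers in the table summed to 534870.0 and 471463 CPM of all counts in TBT 2 and TBT 8 and to 301671 to 462781 elsewhere, with haemoglobin as most of it. The 10 platelet markers summed to 6964 and 8942, against 3093 to 8025 elsewhere. The 8 neutrophil markers summed to 251 and 186, against 422 to 1147, the 7 B cell markers to 250.4 and 369.8, against 834 to 2385, the 8 T cell markers to 38.8 and 33.1, against 64.0 to 202, and the 7 monocyte markers to 147 and 191, against 218 to 898. TBT 7 had the lowest erythroid sum and the highest B cell sum. No marker of these lists was at 0 in all libraries. The part of cell composition in the shares of the complexes was not tested, and in bulk RNA fewer cells of a type and less RNA per cell cannot be told apart. The 7 hepatocyte markers ranged from 4.19 to 611 CPM of all counts in TBT and from 5.31 to 662 in vehicle.

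**Figure D4:**
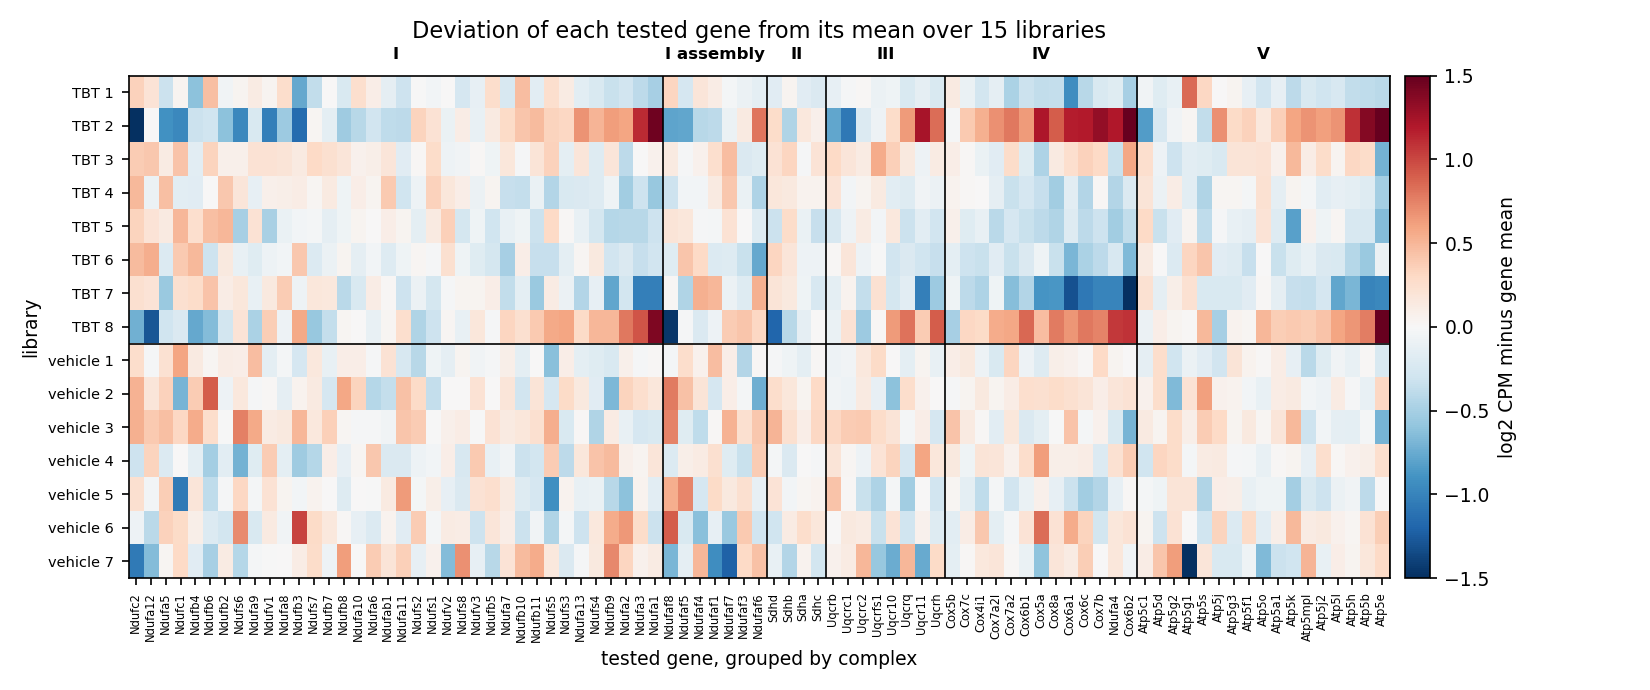
Deviation of each tested gene (columns, grouped by complex and ordered by the deviation in TBT 2 and TBT 8) from its mean over the 15 libraries (rows), as log2(CPM + 0.5) on TMM-scaled sizes, with red above and blue below the mean. TBT 2 and TBT 8 are red through most of complex IV, the right of complex V and the right of complex I, and TBT 7 is blue in many of the same columns.

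Without these libraries the TBT group lay lower in complex IV on TMM-scaled sizes, and what passed depended on which libraries were dropped. Summed CPM of complex IV was 229 ± 38.4 in the other 6 TBT animals (SD, n = 6) and 292 ± 26.9 in vehicle (SD, n = 7). On CPM of all counts the sums were level, at 294 ± 21.3 and 291 ± 50.7. The TMM factors averaged 1.31 ± 0.174 and 1.01 ± 0.210. Without TBT 2 and TBT 8, edgeR called 462 of 13645 genes (3.39%), and 2 members were among them: Ndufa4 (-0.52, adjusted p = 0.0389) and Cox8a (-0.50, adjusted p = 0.0425), both lower in TBT. All 13 tested genes of complex IV then had negative fold changes (median -0.35), as did 47.1% of all genes, and 15 members were lower at an unadjusted p under 0.05 (11.3% of all genes) and 0 higher (8.37%). This fit drops libraries of 1 group only, picked after the values were seen. In 10 of the 13 complex IV genes, Ndufa4 and Cox8a among them, the dropped libraries stood above the other 13. Leaving them out was bound to lower the TBT values of these genes, with or without vehicle 6. The direction and the adjusted p of these fits therefore cannot serve as support for a difference. The other 6 TBT animals also differed from vehicle in blood cell markers. Haemoglobin took 32.3% ± 3.41 of their counts (SD, n = 6) and 36.2% ± 4.55 in vehicle (SD, n = 7). Platelet markers summed to 4919 ± 1281 and 6412 ± 1189 CPM of all counts, neutrophil markers to 901 ± 160 and 623 ± 256, monocyte markers to 651 ± 163 and 411 ± 235, T cell markers to 179 ± 28.3 and 130 ± 47.2, and B cell markers to 1495 ± 523 and 1161 ± 263. The ranges of the groups overlapped in each, and their part in the result was not tested. With vehicle 6, the library with the next smallest TMM factor, dropped as well, 7 genes were called (0.0515%) and 0 members, with adjusted p of 0.0816 for Ndufa4 and 0.0931 for Cox8a. There 13 members were lower at an unadjusted p under 0.05 (9.96% of all genes) and 0 higher (7.01%), the lower ones including 6 of complex IV, and the median of complex IV was -0.36 against 0.02 over all genes. Limma-voom, which kept all libraries and gave each a quality weight, called 22 genes (0.165%) and 0 members, with 13 members lower and 2 higher at an unadjusted p under 0.05 (9.17% and 10.8% of all genes) and a median of -0.37 in complex IV. The weights were not read out, so how far TBT 2 and TBT 8 counted in that fit is not known. The other complexes moved less: in the fit without the 3 libraries the medians were -0.09 for complex I, -0.09 for complex II, -0.16 for complex III and -0.16 for complex V. That of the complex I assembly factors was -0.21 (-0.09 over all animals). Ndufc2, a membrane subunit of complex I singled out after its values were seen, went the other way in the libraries that stood apart, at 0.876 and 2.12 CPM in TBT 2 and TBT 8, with the remaining 6 TBT animals at 4.62 to 5.57 and vehicle at 1.58 to 5.76.

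Genes that serve the chain outside the symbol rule were read from lists of assembly factors, ubiquinone synthesis, regulators and the mitochondrial genome. None of them was called. Cyc1, the cytochrome c1 subunit of complex III, averaged 8.15 ± 1.74 CPM with TBT (SD, n = 8) and 9.32 ± 3.23 CPM with vehicle (SD, n = 7), and Cycs, the cytochrome c that carries electrons to complex IV, at 6.20 ± 1.36 and 5.18 ± 0.541 (log2 fold changes of -0.19 and 0.26, edgeR adjusted p = 0.964 and 0.845). Of the assembly factors of complex IV, 14 of 20 tested were higher (median 0.09), where 59.4% of all genes were. Cmc1, which stabilises the newly made Co1 protein, stood at 4.36 ± 0.563 and 3.06 ± 1.02 CPM (0.52, edgeR adjusted p = 0.725), and Coa7 at 2.28 ± 0.587 and 1.54 ± 0.358 (0.58, edgeR adjusted p = 0.731). In ubiquinone synthesis 8 of 11 were higher (median 0.10), and of the regulators 5 of 12 (median -0.03). At an unadjusted edgeR p under 0.05, 2 ubiquinone genes, 2 complex IV and 1 complex III assembly factor were higher (4.57% of all genes). Of the mitochondrial genome 1 gene was lower at that p (1.76% of all genes). Gabpa, the DNA-binding subunit of GABP, stood at 27.6 ± 3.61 and 24.2 ± 2.24 CPM (0.19, edgeR adjusted p = 0.803), and Polrmt, the mitochondrial RNA polymerase, at 5.47 ± 1.60 and 6.78 ± 0.946 (-0.28, edgeR adjusted p = 0.863). Of the 13 protein genes of the mitochondrial genome 11 were lower (median -0.22, SE 0.385 to 0.914), where 40.6% of all genes were. Their counts were 8.56 to 34.5 times those of the nuclear members in single libraries, with the highest ratios in vehicle 4, vehicle 7, TBT 1 and TBT 8, animals of both groups. These 4 libraries also had the highest sums of hepatocyte markers, at 662, 328, 611 and 189 CPM of all counts in that order and at most 73.5 elsewhere, and their part in the ratio was not tested.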

How the data were processed

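Blood RNA of 15 mice (8 TBT, 7 vehicle) was sequenced from Illumina TruSeq Stranded Total RNA libraries, per the labels' protocols. Per the submitters' processing notes, the tools were Trim Galore, HISAT2 and featureCounts, with build mm10. Not given in the sources used here are versions, annotation release, strand setting and the treatment of reads with several matches. Per gene, the authors deposited whole-number counts, which were used as they are. Many respiratory chain genes have processed pseudogenes, so reads shared with copies may have been dropped or split. All 55536 identifiers were found in GENCODE M21 (GRCm38), which gave coordinates and exon lengths.

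Genes kept by filterByExpr (13364, holding at least 99.4% of each library's counts) went into robust glmQLFit and glmQLFTest of edgeR 4.0.16 (R 4.3.3) after TMM scaling, without covariates. P-values were adjusted by Benjamini-Hochberg across the whole tested table (threshold 0.05). The biological coefficient of variation was 0.290. The steps were tested on simulated data. Alternatives were DESeq2 1.42.0, limma 3.58.1 (voom with sample quality weights), RLE and upper-quartile scaling, no filter, haemoglobin genes left out, a block on the replicate number and leaving out each animal; leaving out TBT 2 and TBT 8, with or without vehicle 6, the length of the principal transcript and CPM of all counts were added after seeing the data. Members and lists were chosen with earlier results of these data known. Named were members with an unadjusted p under 0.05, the 2 with the smallest p and the one with the highest level per kilobase in each complex, the isoform families, the Sdh genes, the untested members, Cyc1, Cycs, and the 2 genes with the smallest p of the assembly lists and of the regulators; Atp5e and Ndufc2 were added after their values were seen. Replicate numbers were not taken as pairs, since nothing says that they mark one.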

Additional observations from a re-analysis of the deposited data

Results flagged for a closer look

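Values far from the rest of their group were looked for in 86 groups of animals by Dixon's test, in which chance flags about 1 in 20 groups, and 4 were found. Atp5g1, a c subunit gene of the ATP synthase, stood at 6.57 CPM in TBT 1, above the rest of the TBT group, and at 0.876 CPM in vehicle 7, below the rest of the vehicle group. Atp5o, the stator subunit, stood at 4.73 CPM in vehicle 7, below the rest of the vehicle group; vehicle 7 had the smallest library. Without vehicle 7 the log2 fold changes were 0.13 for Atp5g1 and 0.21 for Atp5o, and without TBT 1 that of Atp5g1 was 0.13, against 0.28 over all animals for both genes. Complex III took 5.64% of the chain's counts in TBT 2, the lowest share of the TBT group.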

How the results depend on the processing

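No member was called with DESeq2 (19 of 13364 genes called), limma-voom (22), no filter (2 of 41564), RLE, upper-quartile scaling, haemoglobin genes left out, the replicate block or any single animal left out (0 genes called in each), and 2 were called only without TBT 2 and TBT 8, where 1 other respiratory chain gene, Coa5, was called as well. Members lower at an unadjusted p under 0.05, 2 over all animals, were 0 with no filter (3159 of 41564 genes), 13 with limma-voom, 13 without TBT 2, TBT 8 and vehicle 6 and 15 without TBT 2 and TBT 8. With single animals left out they ranged from 0 (without TBT 1) to 3 (without TBT 8 or vehicle 5). Members higher were 0 over all animals, 2 with limma-voom, and 0 to 1 with single animals left out. The median of complex III, 0.06, was -0.16 without the 3 libraries and -0.13 without TBT 2 and TBT 8, and that of complex V, 0.05, was -0.16 and -0.20. Without TBT 2 alone the medians were -0.20 in complex IV and -0.087 in complex V, without TBT 8 alone -0.19, -0.060 and, in complex III, -0.062, without vehicle 7 alone -0.027 in complex III, and without TBT 6 alone 0.022 in the assembly factors (-0.09 over all animals).

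Named genes that turned negative were, with limma-voom, without the 3 libraries and without TBT 2 and TBT 8 in that order, Atp5b (-0.20, -0.27, -0.31), Atp5e (-0.50, -0.57, -0.63), Atp5g3 (-0.071, -0.082, -0.053), Cox6b2 (-0.43, -0.36, -0.40), Cox7a2l (-0.12, -0.19, -0.17), Cox7b (-0.15, -0.22, -0.18), Ndufa1 (-0.36, -0.44, -0.40), Ndufa4 (-0.48, -0.50, -0.52) and Uqcrh (-0.10, -0.20, -0.18). Atp5g3 was also -0.015 with DESeq2, -0.02 with upper-quartile scaling and -0.0085 with haemoglobin genes left out, and Ndufa4 was -0.019 with upper-quartile scaling.

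Replicate numbers 1 to 7 occur in both groups and nothing says that they mark a pair. Deviations of same-numbered animals correlated from -0.23 to 0.51 and 1 of 7 numbers had its best correlation with its own partner. With the replicate block 0 of 13271 genes were called, 3 members were lower at an unadjusted p under 0.05 (371 genes lower, 725 higher), and Atp5b (-0.12), Atp5e (-0.34), Atp5g3 (-0.006), Cox6b2 (-0.19), Cox7a2l (-0.049), Ndufa1 (-0.15), Ndufa4 (-0.31) and Uqcrh (-0.038) were negative. TBT 8 has no partner and was left out of this fit. Without a block, the same libraries gave the same 3 lower members, Atp5d, Ndufa11 and Ndufa7 (363 genes lower, 752 higher). The part of the block in the negative values was therefore not separated from that of leaving out TBT 8.

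With each animal left out in turn, the sign changed for Atp5b (-0.10 to 0.29), Atp5e (-0.10 to 0.30), Atp5g3 (-0.041 to 0.047), Cox6b1 (-0.19 to 0.029), Cox6b2 (-0.11 to 0.35), Cox7a2l (-0.042 to 0.12), Cox7b (-0.0056 to 0.35), Ndufa4 (-0.20 to 0.13), Ndufaf1 (-0.055 to 0.16) and Ndufc2 (-0.054 to 0.16). Of the 31 named genes 13 others moved by over 1.5 times from the value over all animals with no change of sign, among them Sdhd (-0.015 without TBT 8), Sdhb (0.03 without vehicle 7) and Ndufaf5 (-0.16 without vehicle 5).

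With the principal transcript's length the median levels per kilobase in vehicle were 6.99 in complex I, 6.98 in complex II, 9.70 in complex III, 19.96 in complex IV and 14.3 in complex V. On CPM of all counts, TBT 2 and TBT 8 were both above the other 13 libraries in 0 members (0.868% of all genes) and both below in 46 of 85 (55.8% of all genes). The cause of these shifts was not tested.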
